A study of Mus musculus with 8 samples.

Results

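The GIMAP family comprises GTP-binding proteins that vertebrates express mainly in lymphocytes, and in the mouse its genes lie side by side on chromosome 6. Several of the proteins are held at intracellular membranes, and the GTP-bound forms of several members pair with each other. The family is known in T cells for its part in survival and in the upkeep of the quiescent state: mice and rats without Gimap5, and mice whose lymphocytes lack Gimap1, have few peripheral T cells. The 8 genes described here (Gimap1, Gimap3, Gimap4, Gimap5, Gimap6, Gimap7, Gimap8 and Gimap9) were chosen by symbol, as rows of the deposited count table whose gene name was one of these, and they are 8 of the 27594 genes listed. All 8 passed the filter on low counts.

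RNA was sequenced from regulatory T (Treg) cells of C57BL/6 mice aged 6 to 8 weeks, sorted from spleen and lymph nodes as CD4+YFP+ cells. Resting Treg (rTreg) cells were low and activated Treg (aTreg) cells high for CD44, in a gate that used a second surface marker as well. WT cells came from Foxp3-YFP-Cre mice and Foxp1 cKO cells from Foxp1fl/fl Foxp3-YFP-Cre mice, which lose the forkhead transcription factor Foxp1 where Foxp3 is expressed. Both genotypes thus carried Cre and YFP, which are expressed from the Foxp3 locus, and the floxed Foxp1 alleles were the labelled difference between them. Each of the 4 groups (WT rTreg, Foxp1 cKO rTreg, WT aTreg and Foxp1 cKO aTreg) has 2 replicate libraries. The labels do not say whether replicates are separate mice, so p-values measure spread between these libraries. Unless stated otherwise, it is the spread left after a difference between replicate numbers, shared by the 4 groups, is taken out. The expression of a gene per cell cannot be told apart from the share of cells that express it.

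Counts per library summed to between 6373170 and 15268623, with a median of 12327710. Foxp3 stood between 429 and 646 CPM (counts scaled to the size of the library) in every library, and Cd44 was at least 2-fold higher in aTreg than in rTreg cells of both genotypes. In rTreg cells Foxp3 was lower in Foxp1 cKO than in WT cells by the adjusted p alone. Its log2 change was -0.32 (edgeR's quasi-likelihood test, Benjamini-Hochberg adjusted p = 0.0496). Foxp1 itself was at 353 and 384 CPM in WT rTreg cells and at 342 and 338 CPM in the libraries labelled Foxp1 cKO rTreg. In aTreg cells it was at 234 and 230 CPM against 126 and 102 CPM. The counts are of the whole gene, and the floxed exons were not read separately. In rTreg cells the gap between genotype means was smaller than that between the WT libraries, and the level of Foxp1 does not check the rTreg labels. Replicate 1 and replicate 2 also differed in sex, since Xist had 15098 to 21822 counts in the replicate 2 libraries and no more than 3 in the others.

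The 8 genes span 123.6 kb of chromosome 6 (GRCm38, GENCODE M21), with 6 genes on the plus strand and 2 on the minus strand. In order along the chromosome they are Gimap8 (ENSMUSG00000064262, chr6:48647234-48660875), Gimap9 (ENSMUSG00000051124, chr6:48676129-48679114), Gimap4 (ENSMUSG00000054435, chr6:48684549-48692060), Gimap6 (ENSMUSG00000047867, chr6:48701582-48708225, minus strand), Gimap7 (ENSMUSG00000043931, chr6:48718621-48724636), Gimap1 (ENSMUSG00000090019, chr6:48739054-48743795), Gimap5 (ENSMUSG00000043505, chr6:48746197-48754210) and Gimap3 (ENSMUSG00000039264, chr6:48764464-48770851, minus strand). A further annotated gene, Gm28053, runs from a start 14 bases before that of Gimap7 through Gimap1 into Gimap5 and shares 81 exon bases with Gimap7, or 3.48% of the exon length of Gimap7. It had between 26 and 80 counts per library, against 584 to 2808 for Gimap7. Gimap1 shares 36.0% of its exon bases with Gm28053 and the antisense gene Gimap1os together. The strand setting of the counting is not given in the sources used here. Reads of Gimap1 and of Gimap1os therefore cannot be told apart over the exon bases that they share. The other 64.0% of the exon bases of Gimap1 are shared with no other listed gene. The paralogs resemble each other in sequence, and reads that match several members could have been counted unevenly.

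Foxp1 binds DNA through a forkhead domain, and the promoters of 3 members are shown because these genes carry either the one called genotype difference (Gimap7) or a match to a forkhead core (Gimap4 and Gimap3). Each is a RefSeq window of 300 bases on GRCm38.p6, from 250 bases before the start site to 50 after it, 5′ to 3′ on the strand of the gene. Capitals mark the forkhead core TAAACA or its reverse complement TGTTTA.
Gimap7 promoter, chr6:48718371-48718670, plus strand: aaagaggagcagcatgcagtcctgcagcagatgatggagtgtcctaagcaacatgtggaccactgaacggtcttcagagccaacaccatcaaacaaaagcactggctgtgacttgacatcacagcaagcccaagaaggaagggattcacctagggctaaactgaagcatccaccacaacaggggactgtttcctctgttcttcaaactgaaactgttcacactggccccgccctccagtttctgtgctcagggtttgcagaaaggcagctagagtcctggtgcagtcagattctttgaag
Gimap4 promoter, chr6:48684328-48684627, plus strand: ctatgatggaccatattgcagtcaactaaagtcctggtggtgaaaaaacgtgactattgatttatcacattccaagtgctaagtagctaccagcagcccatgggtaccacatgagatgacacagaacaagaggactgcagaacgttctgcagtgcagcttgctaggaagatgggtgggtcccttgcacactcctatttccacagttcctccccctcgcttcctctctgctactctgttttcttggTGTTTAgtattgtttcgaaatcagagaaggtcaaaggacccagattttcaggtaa
Gimap3 promoter, chr6:48770802-48771101, minus strand: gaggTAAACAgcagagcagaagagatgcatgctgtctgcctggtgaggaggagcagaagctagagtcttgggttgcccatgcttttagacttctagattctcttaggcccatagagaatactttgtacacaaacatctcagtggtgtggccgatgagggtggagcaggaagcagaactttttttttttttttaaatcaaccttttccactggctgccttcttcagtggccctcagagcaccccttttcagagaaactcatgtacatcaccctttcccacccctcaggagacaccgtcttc
The forkhead core was found on either strand in 2 of the 8 members and in 13.4% of the 32851 windows of this length in the RefSeq table. It lies at position -5 from the start site in Gimap4 and at position -246 in Gimap3. The window of Gimap7 holds none, which says only that these letters are not in it. The core GGAAGT (reverse complement ACTTCC) of the ETS factors, a second family of lymphocyte transcription factors, was in the windows of 4 members (Gimap9, Gimap6, Gimap1 and Gimap5) and in 23.8% of all windows. A match is a description of the sequence and was not tested for binding.

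As a group, the GIMAP genes were abundant transcripts of Treg cells. Their counts made up between 0.351% and 0.460% of all counts of a library. The 8 genes summed to 4200 ± 364 CPM in WT and 4516 ± 374 CPM in Foxp1 cKO cells of the rTreg subset (SD, n = 2 libraries each). In the aTreg subset they summed to 3756 ± 490 CPM in WT and 4037 ± 633 CPM in Foxp1 cKO cells (SD, n = 2). The sum was higher in Foxp1 cKO than in WT cells in each of the 4 replicate pairs, by 309.7 and 324 CPM in rTreg and by 179 and 382 CPM in aTreg cells. The SDs include the gap between replicate numbers, and the sum was not tested.

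Compared per length, as FPKM (counts divided by exon length and by the library total), the members differed widely. Gimap3, a protein of the outer mitochondrial membrane, was highest with a mean of 593 FPKM over the 8 libraries, and 28 of the 14540 tested genes had a higher mean FPKM. Gimap4, described as a modulator of T cell death, followed at 364 FPKM, and Gimap6, a binding partner of Atg8-family autophagy proteins, at 208 FPKM. Gimap8, which carries several GTP-binding domains in one chain, had 149 FPKM. These 4 genes held ranks 1 to 4 in every library. Gimap1, at 92.1 FPKM, and Gimap9, at 78.4 FPKM, exchanged ranks between libraries. Gimap1 was the higher in every aTreg library and Gimap9 in both WT rTreg libraries, while the Foxp1 cKO rTreg libraries differed. Gimap7, a GTPase that dimerises on binding GTP, had 51.6 FPKM and moved between ranks 6 and 7. It was below Gimap1 in every library and above Gimap9 only in replicate 2 of Foxp1 cKO aTreg cells (85.4 against 79.1 FPKM). Gimap5, the member whose loss is best known for lymphopenia, was the lowest at 25.4 FPKM and was last in each of the 8 libraries.

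**Figure D1:**
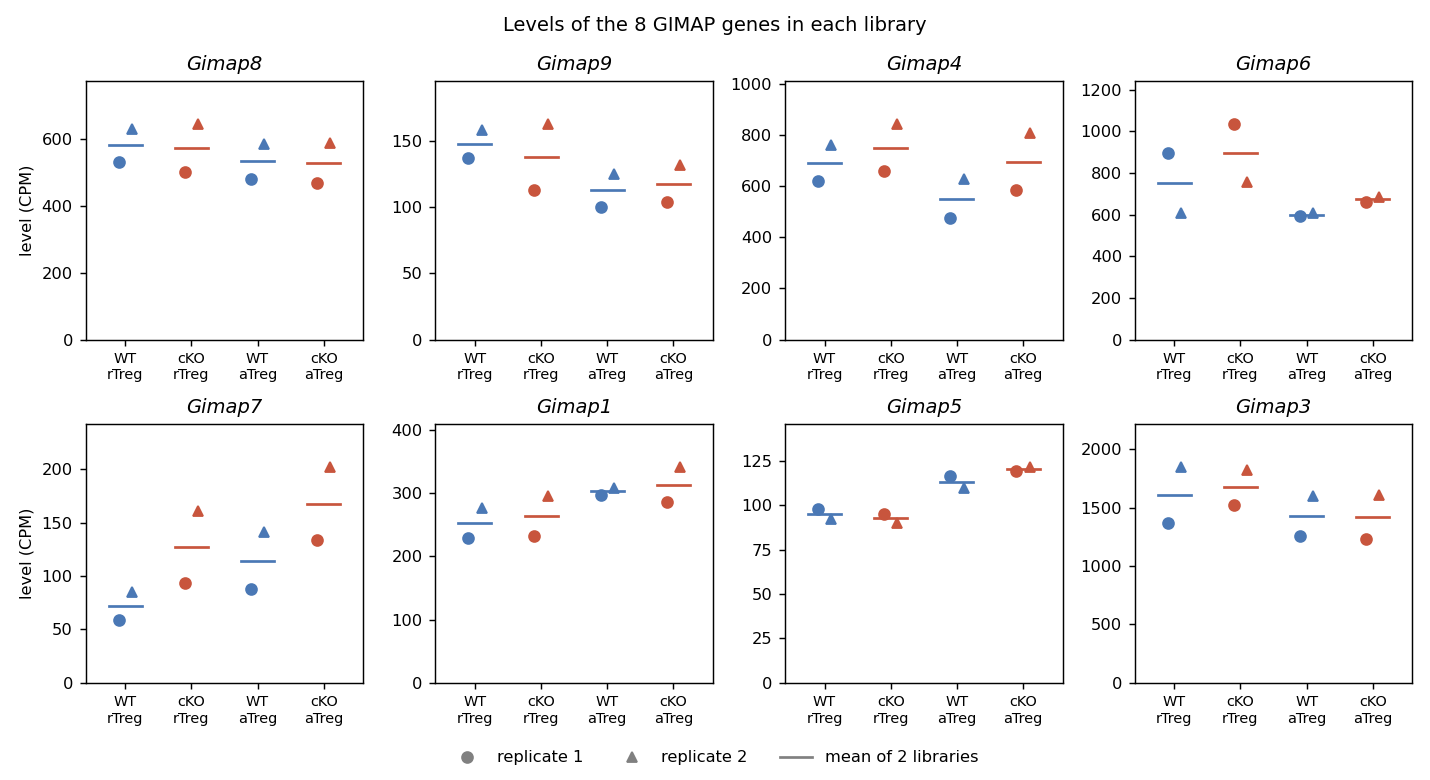
Level of each GIMAP gene in CPM (linear axes from 0, one panel per gene in order along the chromosome) in WT (blue) and Foxp1 cKO (red) rTreg and aTreg cells. Circles are replicate 1, triangles replicate 2 and bars the mean of 2 libraries. Gimap7 is the gene in which both Foxp1 cKO rTreg libraries (93.1 and 161 CPM) lie above both WT rTreg libraries (59.2 and 85.2 CPM).

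The first comparison asked how the family differed between Foxp1 cKO and WT rTreg cells. Gimap7 rose, and none of the other 7 members changed by the test. Gimap7 was at 59.2 and 85.2 CPM in the WT rTreg libraries and at 93.1 and 161 CPM in the Foxp1 cKO rTreg libraries. Both Foxp1 cKO libraries were above both WT libraries, and within each genotype replicate 2 was the higher. The increase was 0.79 on the log2 scale (SE 0.077, 95% interval 0.61 to 0.97, or 1.73-fold; edgeR's quasi-likelihood test, Benjamini-Hochberg adjusted p = 0.00133). It was 0.65 in replicate pair 1 and 0.91 in pair 2. Without the replicate number as a block in the fit, the change was 0.82 with an adjusted p of 0.301 in edgeR's quasi-likelihood test, and the call was lost.

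With Gimap7, 1 of 8 members was called higher in Foxp1 cKO rTreg cells and 0 lower, where a call needed an adjusted p under 0.05 with a 1.5-fold or larger change. Of all 14540 genes tested, 2.90% were called higher and 2.70% lower by this rule, and 6.57% and 5.45% by the adjusted p alone. No further member had an unadjusted p under 0.05. The share of all genes at that level was not counted, here or in the comparisons below. The median log2 change of the 8 members was 0.062, and that of all genes tested was 0.0029.

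The next largest difference was in Gimap6, which stood at 894 and 608 CPM in WT rTreg cells and at 1034 and 758 CPM in Foxp1 cKO rTreg cells. The groups overlapped, because replicate 1 exceeded replicate 2 in both genotypes. Its log2 difference of 0.26 had a 95% interval of -0.083 to 0.60 (edgeR's quasi-likelihood test, Benjamini-Hochberg adjusted p = 0.297). Gimap4 was at 620 and 759 CPM in WT and 657 and 842 CPM in Foxp1 cKO rTreg cells, a log2 difference of 0.12 that did not pass (edgeR's quasi-likelihood test, adjusted p = 0.217). The remaining 5 members had log2 differences between -0.11 (Gimap9) and 0.069 (Gimap3). Their 95% intervals reached no further than -0.30 and 0.23, so a change of 1.5-fold lay outside each of them.

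Granulocyte transcripts moved with genotype in the same libraries. The summed level of S100a8, S100a9, Mpo and Elane was 0 to 0.368 CPM in WT rTreg cells and 5.13 to 11.6 CPM in Foxp1 cKO rTreg cells. Of these 4 genes 3 were called higher, against 2.90% of all genes tested. In aTreg cells the sum was 1.92 to 2.63 CPM in WT and 2.59 to 24.7 CPM in Foxp1 cKO cells. There 1 of the 4, Mpo, was called higher, against 2.37% of all genes. S100a9 was also called higher in WT aTreg than in WT rTreg cells, with a log2 change of 3.98 (edgeR's quasi-likelihood test, adjusted p = 0.0294). The part of the granulocyte transcripts in the Gimap7 and Gimap4 differences was not tested. Of the other cell types read from marker lists, B cells (7.83 to 9.56 CPM in rTreg and 17.6 to 20.1 CPM in aTreg cells), NK cells (0 to 0.506 and 2.16 to 3.59 CPM) and myeloid cells (34.8 to 43.8 and 48.2 to 63.5 CPM) had higher summed levels in aTreg than in rTreg cells. CD8 T cell markers summed to 12.5 to 16.7 CPM in rTreg and 6.11 to 9.98 CPM in aTreg cells. No tested marker of these 4 lists was called between genotypes, while Cd79b and Klrb1c were called higher in aTreg than in rTreg cells of both genotypes. The B cell marker Ms4a1 had at most 4 counts and the NK cell marker Ncr1 at most 15 in any library. Most of the myeloid sum was Cst3, at 34.0 to 58.9 CPM. The myeloid markers Lyz2, Csf1r and Itgam had at most 59, 8 and 12 counts. Of the endothelial list, Cdh5 and Kdr had at most 3 counts, and Pecam1, which T cells also express, was at 111 to 293 CPM and lower in aTreg cells. The part of these levels in the differences between subsets was not tested. In rTreg cells, Cd44 was lower in Foxp1 cKO than in WT cells by the adjusted p alone, with a log2 change of -0.43 (edgeR's quasi-likelihood test, Benjamini-Hochberg adjusted p = 0.0339).

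In aTreg cells, no member was called by the same rule (0 of 8 higher, 0 lower), against 2.37% and 1.66% of all genes tested. By the adjusted p alone, Gimap7 and Gimap4 were higher in Foxp1 cKO cells and none was lower, against 4.11% and 2.77% of all genes. At an unadjusted p under 0.05 the count was also 2. The median log2 change was 0.079 for the members and 0.0018 for all genes. Gimap7 had 87.9 and 141 CPM in the WT libraries of this subset, against 134 and 202 CPM in the Foxp1 cKO libraries. The lower Foxp1 cKO library fell below the higher WT library, but within each replicate number Foxp1 cKO was above WT, by 0.60 and 0.52 on the log2 scale. The fitted log2 change was 0.56 (SE 0.074, 95% interval 0.39 to 0.73, or 1.47-fold; edgeR's quasi-likelihood test, Benjamini-Hochberg adjusted p = 0.00723). It lost its threshold on leaving out replicate 2 of Foxp1 cKO aTreg cells, with a change of 0.60 and an adjusted p of 0.0627 in edgeR's quasi-likelihood test.

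Gimap4 had 473 and 629 CPM in the WT and 584 and 806 CPM in the Foxp1 cKO libraries of aTreg cells. Again the groups overlapped while both pairs moved up, by 0.30 and 0.36 on the log2 scale. The fitted log2 change was 0.33 (SE 0.055, 95% interval 0.20 to 0.46; edgeR's quasi-likelihood test, Benjamini-Hochberg adjusted p = 0.0158), or 1.26-fold. It lost its threshold without replicate 1 of WT aTreg cells (0.32, adjusted p = 0.0553), without replicate 2 of WT aTreg cells (0.35, adjusted p = 0.0748) and without replicate 2 of Foxp1 cKO aTreg cells (0.27, adjusted p = 0.146), each in edgeR's quasi-likelihood test. Without the replicate block, the adjusted p in edgeR's quasi-likelihood test was 0.611 for Gimap7 and 0.615 for Gimap4 in aTreg cells. The other 6 members had log2 differences from -0.015 (Gimap8) to 0.16 (Gimap6).

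**Figure D2:**
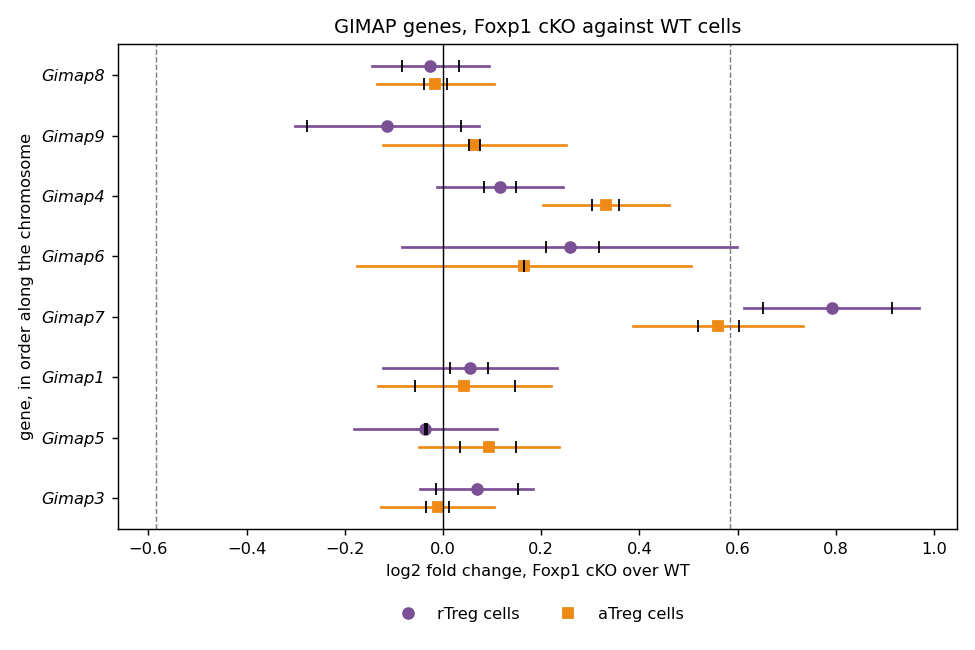
Log2 fold change of Foxp1 cKO over WT cells for each GIMAP gene in rTreg cells (circles) and aTreg cells (squares), with bars for the 95% interval of the fit, black ticks for the 2 replicate pairs and dashed lines at a 1.5-fold change. Gimap7 stands at 0.79 and 0.56 in rTreg and aTreg cells, Gimap4 at 0.12 and 0.33, and the intervals of the other 6 genes include 0 in both.

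An interaction term in the same fit tested whether the genotype difference was unequal in the aTreg and rTreg subsets. It passed for 0 of the 8 members in either direction, against 0.186% of all genes tested with a positive and 0.144% with a negative interaction. The interaction was -0.23 for Gimap7 (95% interval -0.48 to 0.016; edgeR's quasi-likelihood test, Benjamini-Hochberg adjusted p = 0.418) and 0.22 for Gimap4 (95% interval 0.034 to 0.40; adjusted p = 0.2999 in the same test). Gimap4 was the 1 member with an unadjusted p under 0.05. The median interaction was -0.0011 for the members and -0.011 for all genes. The counts of called members in these and the following comparisons were the same with limma-voom and with DESeq2.

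Because the 8 genes lie together and are counted side by side, the share of each in the summed GIMAP FPKM describes the makeup of the family within a library. In the rTreg subset Gimap7 contributed 1.72% and 2.13% in the WT libraries against 2.52% and 3.75% in the Foxp1 cKO libraries. In the aTreg subset its share was 2.98% and 3.89% in the WT libraries against 4.24% and 5.03% in the Foxp1 cKO libraries. No library of either Foxp1 cKO group had a share as low as the WT libraries of the same subset. The summed level of the other 7 members was 3883 and 4372 CPM in WT rTreg cells and 4159 and 4620 CPM in Foxp1 cKO rTreg cells, which overlap. Gimap3 contributed the most in each group, with mean shares from 35.8% to 39.2%, and Gimap4 came next with 21.1% to 24.4%.

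**Figure D3:**
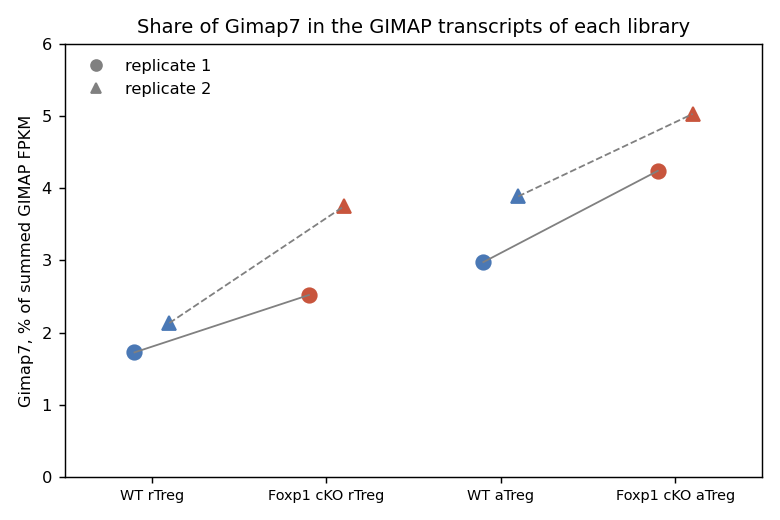
Share of Gimap7 in the summed FPKM of the 8 GIMAP genes, in percent, for each library (blue WT, red Foxp1 cKO, circles replicate 1, triangles replicate 2, lines joining the libraries of 1 replicate number within a subset). The share runs from 1.72% in a WT rTreg library to 5.03% in a Foxp1 cKO aTreg library and is higher in Foxp1 cKO than in WT cells in all 4 pairs.

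The next comparison set aTreg against rTreg cells within each genotype; these comparisons share their libraries with those above. In WT cells no member was called at an adjusted p under 0.05 with a 2-fold or larger change (0 of 8 higher, 0 lower), while 9.50% of all genes tested were called higher and 2.83% lower. By the adjusted p alone the family split, with 3 members higher in aTreg cells (Gimap7, Gimap5 and Gimap1) and 3 lower (Gimap9, Gimap4 and Gimap3). The shares of all genes were 18.2% and 13.6%. An unadjusted p under 0.05 was reached by 7 members, with no share of all genes counted beside it. The median log2 change was -0.15 for the members and -0.0046 for all genes.

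Gimap7 was 0.65 higher in WT aTreg than in WT rTreg cells on the log2 scale (SE 0.076; edgeR's quasi-likelihood test, Benjamini-Hochberg adjusted p = 5.89e-04), and both WT aTreg libraries exceeded both WT rTreg libraries. The WT rTreg libraries had 97.8 and 92.1 CPM of Gimap5 and the WT aTreg libraries 117 and 109 CPM. The groups did not overlap, and the log2 change was 0.25 (SE 0.062; edgeR's quasi-likelihood test, adjusted p = 0.0180). Gimap1, which mature lymphocytes need for survival, was at 230 and 277 CPM in the WT rTreg libraries, compared with 298 and 308 CPM in WT aTreg libraries, a log2 change of 0.26 (SE 0.076; edgeR's quasi-likelihood test, adjusted p = 0.0322). Thus the groups of these 3 genes were apart in WT cells, with changes of at most 1.57-fold.

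Gimap9 fell from 137 and 159 CPM in the WT rTreg libraries to 100.3 and 125 CPM in the WT aTreg libraries, a log2 change of -0.40 (SE 0.080; edgeR's quasi-likelihood test, Benjamini-Hochberg adjusted p = 0.00763). Gimap4 was lower in WT aTreg cells by the same test, with a log2 change of -0.33 (adjusted p = 0.00315 in edgeR's quasi-likelihood test), although the 2 groups overlapped by 1 library. Gimap3 stood at 1372 and 1847 CPM in WT rTreg cells against 1262 and 1598 CPM in WT aTreg cells. Its groups overlapped too, and its log2 change was -0.17 (edgeR's quasi-likelihood test, adjusted p = 0.0373). Gimap8 had a log2 difference of -0.13, and Gimap6 one of -0.30, and neither passed (edgeR's quasi-likelihood test, adjusted p = 0.0957 and 0.162). With the trend of change with gene length removed, which moved the median of all genes to -0.17, the changes of Gimap1 and Gimap5 were 0.079 and 0.059 and no longer passed (edgeR's quasi-likelihood test, adjusted p = 0.442 and 0.473). Gimap6 and Gimap8 did pass in that fit, with log2 changes of -0.49 and -0.32 (edgeR's quasi-likelihood test, adjusted p = 0.0247 and 0.00178).

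In Foxp1 cKO cells, too, no member was called (0 of 8 higher, 0 lower, against 11.3% and 4.39% of all genes). By the adjusted p alone 3 were higher in aTreg cells and 1 lower, against 21.9% and 18.2% of all genes. An unadjusted p under 0.05 was reached by 6 members, again with no share of all genes counted. The median log2 change was -0.12 for the members and -0.018 for all genes. Gimap5 was at 95.3 and 90.0 CPM in Foxp1 cKO rTreg cells and at 119 and 121 CPM in Foxp1 cKO aTreg cells, a log2 change of 0.38 (SE 0.062; edgeR's quasi-likelihood test, Benjamini-Hochberg adjusted p = 0.00218). It was the change between subsets that passed an adjusted p of 0.05 under all 19 alternatives tried. Gimap7 was higher by 0.42 (SE 0.075) and Gimap1 by 0.25 (SE 0.076) on the log2 scale (edgeR's quasi-likelihood test, adjusted p = 0.00332 and 0.0316). The Gimap7 groups overlapped, since the higher Foxp1 cKO rTreg library (161 CPM) exceeded the lower Foxp1 cKO aTreg library (134 CPM). The Gimap1 groups overlapped in the same way (295 and 286 CPM). Gimap3 was lower by a log2 change of -0.25 (edgeR's quasi-likelihood test, adjusted p = 0.00577). Its groups overlapped too, with the higher aTreg library (1612 CPM) above the lower rTreg library (1525 CPM).

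**Figure D4:**
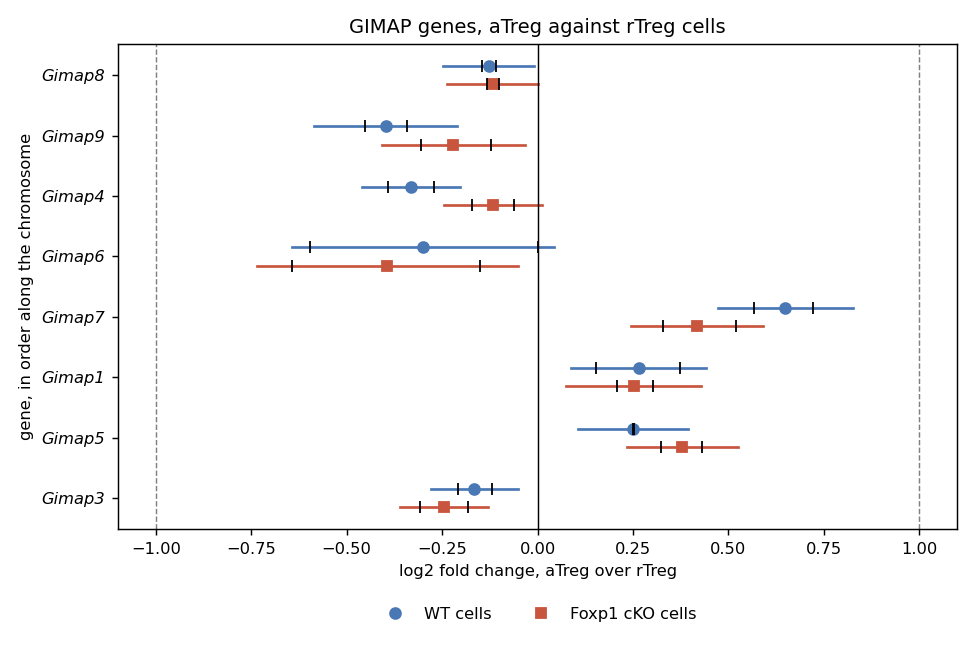
Log2 fold change of aTreg over rTreg cells for each GIMAP gene in WT cells (circles) and Foxp1 cKO cells (squares), with bars for the 95% interval of the fit, black ticks for the 2 replicate pairs and dashed lines at a 2-fold change. Gimap7, Gimap1 and Gimap5 lie above 0 and the other 5 genes below 0 in both genotypes, and none reaches the dashed lines.

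The spread between replicates was shared across groups for most members. Gimap1, Gimap3, Gimap4, Gimap7, Gimap8 and Gimap9 (6 of 8) were higher in replicate 2 than in replicate 1 in all 4 groups. The gap was widest in Gimap7, at 0.52 to 0.79 on the log2 scale, about the size of its differences between genotypes. Gimap5 hardly differed between replicates, with gaps from -0.090 to 0.023. Gimap6 behaved differently by subset: replicate 2 was lower by a log2 gap of -0.56 in WT and -0.45 in Foxp1 cKO rTreg cells, while in aTreg cells both gaps were 0.04. Since replicate number goes together with sex, and may go together with the round of sequencing, these cannot be told apart here.

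**Figure D5:**
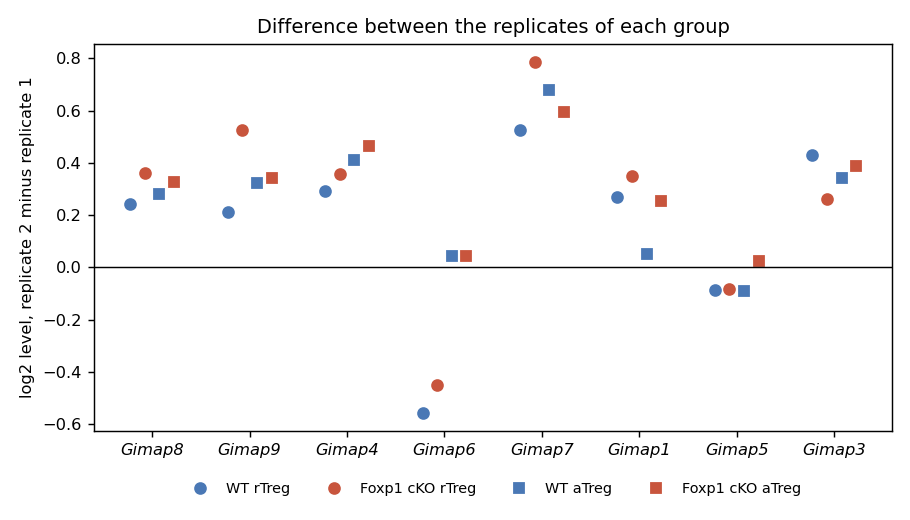
Difference in log2 level between replicate 2 and replicate 1 of each group for each GIMAP gene (blue WT, red Foxp1 cKO, circles rTreg, squares aTreg). The points of Gimap7 lie between 0.52 and 0.79, and those of Gimap6 at -0.56 and -0.45 in rTreg cells and at 0.04 in aTreg cells.

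Pearson correlations of log2 CPM between pairs of members over the 8 libraries ran from -0.762 to 0.94 with a median of 0.196 (28 pairs). These are descriptions over libraries that share a replicate number and a subset. The 5 genes whose log2 CPM was most like the mean of the 8 members, among 8961 genes with a mean of at least 10 CPM, were Zfp729a (r = 0.986 over 8 libraries), Mis12 (0.982), Madd (0.98), Cebpg (0.979) and Ppp1r18 (0.975).

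Genes in or next to the cluster on chromosome 6 were read as a second local measure. Among them, Gimap1os lies within the cluster and shares exon bases with Gimap1, so it is not a separate measure. Of 10 neighbours, 7 were tested, and 1 was called higher and 0 lower in Foxp1 cKO rTreg cells, against 2.90% and 2.70% of all genes. It was Tmem176a, a membrane protein gene that begins 70.1 kb beyond the cluster, at 2.67 and 2.36 CPM in WT and 5.58 and 5.71 CPM in Foxp1 cKO rTreg cells. The log2 change was 1.15 (SE 0.30; edgeR's quasi-likelihood test, Benjamini-Hochberg adjusted p = 0.0472). By the adjusted p alone Lrrc61, named after its values were seen, was lower with a log2 change of -0.46 (edgeR's quasi-likelihood test, adjusted p = 0.0174). By that rule 1 of the 7 was higher and 1 lower, against 6.57% and 5.45% of all genes. In aTreg cells none of the 7 passed the adjusted p in either direction, against 4.11% of all genes higher and 2.77% lower. Between subsets, 1 of 7 was called higher in aTreg cells of each genotype (9.50% and 11.3% of all genes), Repin1, with log2 changes of 2.30 in WT and 2.05 in Foxp1 cKO cells (edgeR's quasi-likelihood test, adjusted p = 2.00e-04 and 2.21e-04). The median log2 difference of the 7 tested genes between genotypes was 0.32 in rTreg cells, which is the value of Gimap1os, and 0.17 in aTreg cells. The medians of all genes tested were 0.0029 and 0.0018.

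Of 15 lymphocyte survival and quiescence genes, none was called between genotypes in either subset (0 higher, 0 lower), and their median log2 difference was 0.031 in rTreg and 0.094 in aTreg cells. By the adjusted p alone 2 were higher and 2 lower in rTreg cells, against 6.57% and 5.45% of all genes. In aTreg cells 1 was higher and 2 lower, against 4.11% and 2.77%. These genes are named after their values were seen. In rTreg cells Bak1 and Bax, both effectors of mitochondrial cell death, were higher in Foxp1 cKO cells by 0.49 and 0.33 on the log2 scale (edgeR's quasi-likelihood test, Benjamini-Hochberg adjusted p = 0.0130 and 0.0387). Foxo1, a transcription factor of T cell quiescence, and Tsc1, an inhibitor of mTORC1, were lower there, with log2 changes of -0.31 and -0.34 (edgeR's quasi-likelihood test, adjusted p = 0.0217 and 0.0185). In aTreg cells Bak1 was higher by 0.54, while Foxo1 and the survival gene Bcl2 were lower with log2 changes of -0.29 and -0.33 (edgeR's quasi-likelihood test, adjusted p = 0.0119, 0.0385 and 0.0352). Between WT subsets 3 of the 15 were called lower in aTreg cells (Bcl2, Bcl2l11 and Klf2, the last with a log2 change of -1.61) and 0 higher, against 2.83% and 9.50% of all genes. Between Foxp1 cKO subsets 2 were called lower (Bcl2 and Klf2) and 1 higher (Il7r), against 4.39% and 11.3%. The median log2 change of the list between subsets was -0.0073 in WT and -0.049 in Foxp1 cKO cells.

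Of the 5 Atg8 family genes, the class that binds Gimap6, 1 was called lower and 0 higher in Foxp1 cKO rTreg cells, against 2.70% and 2.90% of all genes. Gabarapl1 was at 5.62 and 4.40 CPM in WT and 3.35 and 2.17 CPM in Foxp1 cKO rTreg cells, a log2 change of -0.89 (SE 0.22; edgeR's quasi-likelihood test, Benjamini-Hochberg adjusted p = 0.0417). None of the 5 passed the adjusted p in aTreg cells between genotypes, against 4.11% of all genes higher and 2.77% lower. Gabarapl1 was also called higher in aTreg than in rTreg cells, with log2 changes of 2.07 in WT and 2.80 in Foxp1 cKO cells (edgeR's quasi-likelihood test, adjusted p = 1.12e-04 and 3.49e-05). It was the 1 gene of the 5 called higher, against 9.50% of all genes in WT and 11.3% in Foxp1 cKO cells.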

How the data were processed

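RNA was sequenced from 8 libraries (NEBNext Ultra kit), 2 in each of 4 groups named by the labels. The authors deposited counts, whole numbers of reads per gene without normalization, made per the labels with HISAT2 2.0.5 on mm10 and HTSeq; according to the methods, reads were trimmed and duplicates removed. The authors also deposited FPKM values, which divide each count by the library total and the merged exon length of the gene; they were used to compare levels between genes. Columns matching no sample: 0 of those in the tables.

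CPM were scaled by TMM. A single fit held all 8 libraries, with group means and a block for the replicate number (edgeR 4.0.16 in R 4.3.3, filterByExpr with a minimum count of 10, glmQLFit and glmQLFTest), on 14540 genes (13054 left out), with p-values adjusted by Benjamini-Hochberg over all of them. Calls needed an adjusted p under 0.05 and, as in the study, a change of 1.5-fold or more (genotypes) or 2-fold or more (subsets). Replicate numbers in the labels, and the study's own paired analysis, give the pairing; deviations of same-numbered libraries from their group means correlated at 0.355 to 0.597 for every pair of groups. A level of 3 counts was taken as the floor, 0.196 to 0.471 CPM, which covers counting error only; every member had at least 584 counts in each library.

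The members, gene lists and tests were chosen with earlier results of these data known. All 8 members are named. List genes are named if called between genotypes, and others as stated. The alternatives included limma-voom (limma 3.58.1), DESeq2 1.42.0, other filters, log2 of FPKM plus a pseudocount of 1 or 0.1, no replicate block and leaving out each library. The fit was tested on simulated data. Results for 2 marker genes are not reported here.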

Additional observations from a re-analysis of the deposited data

How the results depend on the processing

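Under 19 alternatives, 725 of 752 log2 fold changes of the members kept their direction and their call by adjusted p and fold together. The one called member, Gimap7 in rTreg cells, was called under 18 of them, all of which kept the replicate block. Some of these left out an aTreg library, which is not part of that comparison. Without the replicate block the count of members called higher there was 0, with a Gimap7 change of 0.82 and an adjusted p of 0.301 in edgeR's quasi-likelihood test. The block changed no other call of a member, but without it no member passed the adjusted p alone except Gimap5 between Foxp1 cKO subsets.

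There were 26 reversals of sign, all in results of at most 0.16 in size. For the interaction of Gimap1 they were 0.0024 with DESeq2, 0.0024 with median-of-ratios size factors and 0.020 with no filter. Leaving out 1 library at a time gave, for Gimap1, -0.077 to 0.17 (aTreg genotype), -0.028 to 0.12 (rTreg genotype) and -0.13 to 0.12 (interaction). It gave -0.033 to 0.013 (aTreg) and -0.00082 to 0.13 (rTreg) for Gimap3, and -0.029 to 0.36 (aTreg) and -0.32 to 0.12 (interaction) for Gimap6. For Gimap8 it gave -0.032 to 0.0045 (aTreg), -0.075 to 0.0047 (rTreg) and -0.022 to 0.057 (interaction). The cause was not tested.

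The adjusted p alone held under 14 of 19 alternatives for Gimap7 and 11 for Gimap4 in aTreg cells. Between WT subsets it held under 18 for Gimap7, 17 for Gimap4, 16 for Gimap9, 13 for Gimap1 and Gimap5 and 10 for Gimap3, and between Foxp1 cKO subsets under 17 for Gimap7, 16 for Gimap3 and 12 for Gimap1. Of 247 such values, 53 did not pass. Some changes that had not passed did so under an alternative, most often Gimap6 between Foxp1 cKO subsets, under 7 of 19. Between WT subsets, leaving out replicate 1 of rTreg cells ended it for Gimap9 (adjusted p = 0.0891), and leaving out either rTreg library or replicate 1 of aTreg cells ended it for Gimap1 (0.102 to 0.247). Leaving out any of the 4 WT libraries ended it for Gimap3 (0.0565 to 0.314) and Gimap5 (0.0566 to 0.118). Between Foxp1 cKO subsets, any of the 4 libraries ended it for Gimap1 (0.0523 to 0.194) and replicate 1 of rTreg cells for Gimap3 (0.0765), all in edgeR's quasi-likelihood test.

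Removing the trend with gene length moved the median of all genes between subsets to -0.17 (WT) and -0.19 (Foxp1 cKO), and the members with it. In WT cells Gimap1 was then at 0.079, Gimap5 at 0.059, Gimap7 at 0.43, Gimap3 at -0.36, Gimap4 at -0.53, Gimap6 at -0.49, Gimap8 at -0.32 and Gimap9 at -0.58. In Foxp1 cKO cells Gimap1 was at 0.074, Gimap5 at 0.18, Gimap7 at 0.20 (adjusted p = 0.0527), Gimap3 at -0.44, Gimap4 at -0.31, Gimap6 at -0.58, Gimap8 at -0.31 and Gimap9 at -0.40. Gimap6 and Gimap8 newly passed the adjusted p alone in both genotypes. Gimap4 and Gimap9 newly passed it in Foxp1 cKO cells (edgeR's quasi-likelihood test, adjusted p = 0.00289 and 0.00417).

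Counts over all genes moved by more than 1.5 times under several alternatives. In rTreg cells, 421 higher and 393 lower became 67 to 583 and 61 to 607; in aTreg cells, 344 and 242 became 13 to 583 and 6 to 452. Between subsets, 1382 and 411 (WT) became 629 to 1534 and 140 to 641 and 1643 and 639 (Foxp1 cKO) became 834 to 1865 and 236 to 879. For the interaction, 27 and 21 became 0 to 359 and 0 to 214. Leaving out a library leaves a group of 1, whose spread is taken from the other groups.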
